A study of Mus musculus with 24 samples.

Results

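The genes described here are 10 components of the NRF2 antioxidant and detoxification programme, measured in LLC1 cells, a mouse Lewis lung carcinoma line. They are Nqo1, Hmox1, Gclc, Gclm, Gsr, Txnrd1, Srxn1, Me1, Ugt1a6a and Nfe2l2, the gene of NRF2 itself. They were chosen by name, as known targets of this factor together with the factor, and the deposited transcript values were summed for each gene. These 10 are among 28328 genes in the table, and all 10 were among the 12581 genes that passed a filter on low values and were tested. The study held 24 poly(A) RNA libraries, 3 in each of 8 groups, from 4 treatments read at 6 h and at 24 h. Control cells, called untreated here, received 0.1% DMSO. No DMSO amount is recorded for the treated groups. Chemotherapy was 2.5 µM cisplatin with 2.5 µM pemetrexed, a platinum drug that crosslinks DNA and an antifolate. Trametinib, an inhibitor of the MEK kinases, was given at 10 nM. The combination was all 3 drugs at those doses. All groups are this 1 cell line in culture, and the treatments were compared with the untreated cells and with each other.

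NRF2 is a transcription factor that is normally held in the cytoplasm by KEAP1 and sent for degradation. Oxidants and electrophiles modify KEAP1, NRF2 then accumulates, and with small MAF proteins it binds antioxidant response elements near genes for glutathione synthesis, thioredoxin reduction, NADPH supply, quinone and heme breakdown and drug conjugation. In lung carcinoma cells this programme is known for limiting the damage done by platinum drugs, and its activity is set largely through the NRF2 protein, which RNA levels do not measure.

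At 24 h, trametinib left 9 of the 10 genes below the untreated level (background 26.3%, the share of all tested genes called lower) and 0 above it (background 32.4%). The exception was Me1. At 6 h the same drug had the opposite sign for Nqo1 and Ugt1a6a, which were higher than in untreated cells. With chemotherapy 7 of 10 were lower at 24 h (background 24.3%) and Hmox1 was higher (background 34.9%). With the combination 6 were lower (background 23.8%) and 2, Me1 and Ugt1a6a, were higher (background 39.6%). Against the sum of the log2 differences of chemotherapy and trametinib given alone, the 24 h level under the combination was called higher for 9 of the 10 genes (background 16.2%).

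Levels are given in TPM, each transcript's length-corrected share of its library on a common scale, so levels of different genes can be compared. Because it is a share, less of a gene's RNA per cell and more of other RNA cannot be told apart in it, and the number of reads behind it is unknown. Differences are on the log2(TPM + 1) scale, printed with their standard error, and adding 1 understates the difference of genes at low levels. They were tested with limma over all 24 libraries, two-sided, with Benjamini-Hochberg adjustment over all 12581 genes, and a gene was called higher or lower at an adjusted p under 0.05. Whether the 3 libraries of a group were grown apart is not stated in the labels, and the p-values therefore reflect library-to-library spread alone, which may be technical. The number of genes at 1 TPM or more ran from 11242 to 11851 per library, and libraries of 1 group correlated at 0.982 to 0.994 over genes. Of 4 epithelial markers, Krt8 and Krt18 were present at 69.9 to 209 and 121 to 361 TPM, while Epcam and Cdh1 did not pass 0.154 TPM. The leukocyte gene Ptprc stayed at or under 0.0121 TPM, and Cd3e and Adgre1 were listed at 0 in all libraries. The T or NK cell, B cell and red cell lists summed to at most 0.572, 0.883 and 2.70 TPM, and the 24 h levels of the other lists are given beside the counts.

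The core antioxidant response element, written TGACNNNGC, was searched on both strands of 300-base windows, from 250 bases before to 50 bases after annotated gene starts (RefSeq, GRCm38.p6). Windows were found for 7 of the 10 genes, 10 windows in all because Me1 and Txnrd1 have more than 1 start. The motif lay in 5 windows, 1 each for 5 genes, and in 12.4% of the 32851 windows of all genes. The matches are shown because they are the letters NRF2 is known to read, each with 10 bases on both sides, in the direction in which the motif reads, with the motif in capitals. A match is a description of the sequence, not evidence that NRF2 binds there, and the libraries hold no measurement of binding.
Nfe2l2: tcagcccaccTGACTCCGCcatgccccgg
Srxn1: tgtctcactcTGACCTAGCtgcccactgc
Gclm: tcgtgagagtTGACGGTGCgcccgggagc
Me1: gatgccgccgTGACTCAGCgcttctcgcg
Txnrd1: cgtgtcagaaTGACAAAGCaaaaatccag
These stretches lie at chr2:75704885-75704913 for Nfe2l2, chr2:152105542-152105570 for Srxn1, chr3:122245413-122245441 for Gclm, chr9:86695902-86695930 for Me1 and chr10:82859104-82859132 for Txnrd1, and all 5 are printed from the minus strand. For Nfe2l2 and Me1 the motif reads in the direction of the gene, and it begins 240 and 6 bases before the start. For Gclm, Txnrd1 and Srxn1 it reads in the opposite direction, and its edge nearest the upstream end lies 134 bases before the start of Gclm, 92 bases before 1 of the 3 starts of Txnrd1 and 28 bases after the start of Srxn1. The windows of Nqo1 and Ugt1a6a did not hold these letters.

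**Figure D1:**
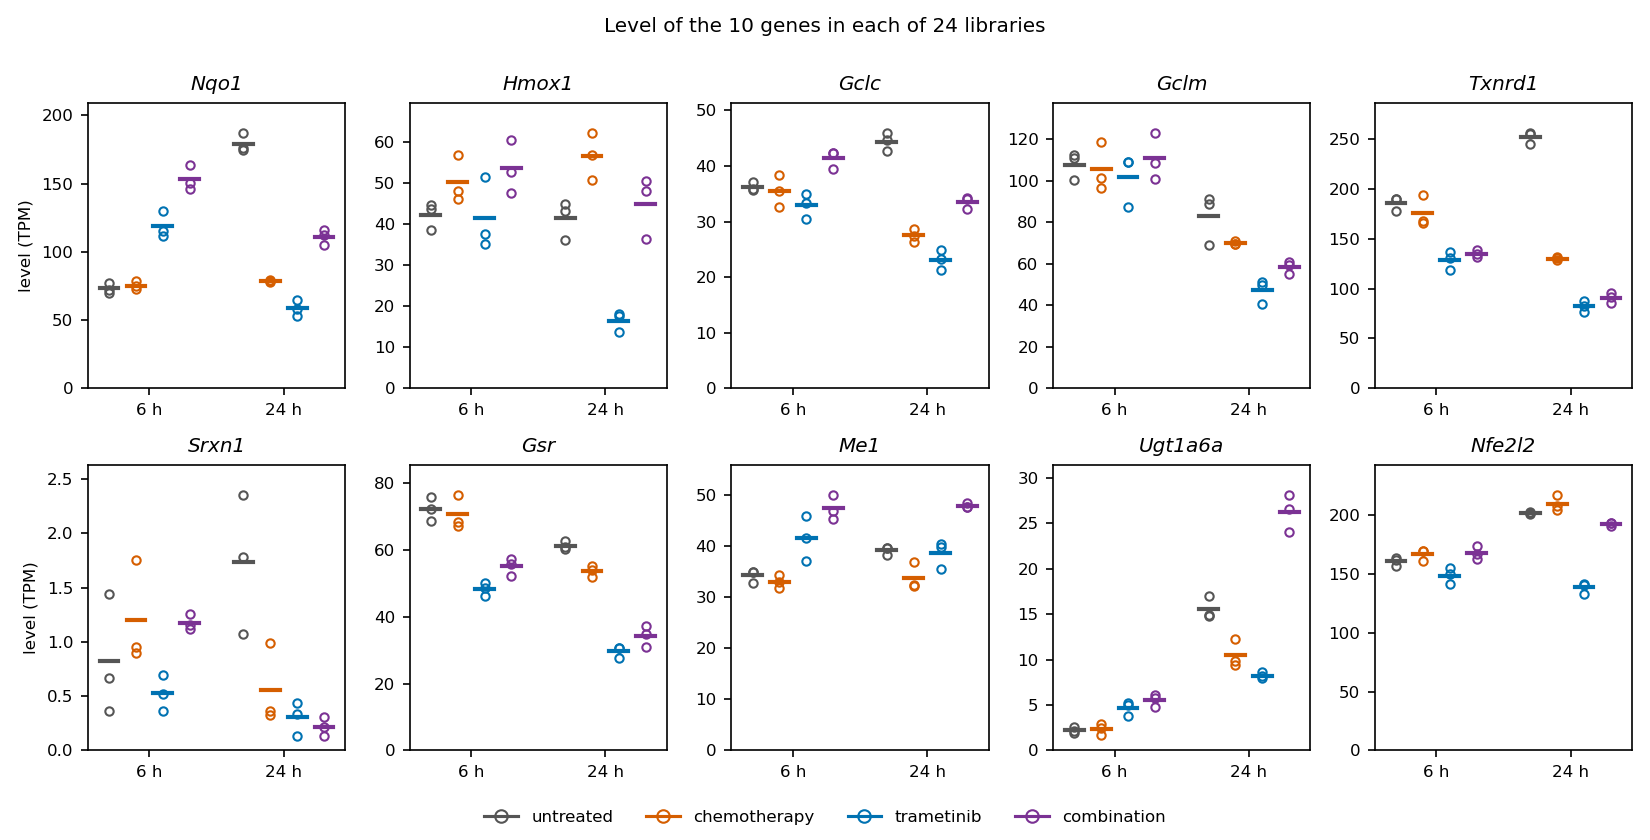
Level in TPM of the 10 genes (1 panel each, y axes starting at 0) in each of 24 libraries, by time and treatment; open points are libraries and lines are means of 3. Nqo1 and Txnrd1 are highest in untreated cells at 24 h, Hmox1 and Nfe2l2 in chemotherapy at 24 h and Ugt1a6a in the combination at 24 h, while Srxn1 stays under 2.35 TPM.

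The plot of levels by library shows that Nfe2l2 and Txnrd1 were the most abundant of the 10, with medians over the 24 libraries of 168 and 133 TPM. Nqo1 and Gclm followed at 92.2 and 89.8 TPM, then Gsr at 54.6, Hmox1 at 45.5, Me1 at 38.9 and Gclc at 34.7 TPM. Ugt1a6a was lower, at 6.997 TPM, and Srxn1 lowest, at 0.68 TPM. Srxn1 reached 1 TPM in 8 libraries, and the other 9 genes did so in all 24.

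Nqo1 (ENSMUSG00000003849.8, chr8:107388225-107403206, minus strand, GRCm38) encodes a reductase that turns quinones into hydroquinones and is among the most used readouts of NRF2. On the log2(TPM + 1) scale, its difference from untreated cells changed most of the 10 between the time points, for each of the 3 treatments. That scale understates the changes of Srxn1, whose levels were low. For chemotherapy and the combination, the place of Nqo1 above Srxn1 depends on it. At 6 h the untreated libraries held 70.1, 77.4 and 71.9 TPM of Nqo1 and the chemotherapy libraries 78.3, 72.5 and 74.8 TPM. The trametinib libraries held 111, 115 and 129.9 TPM and the combination libraries 164, 146 and 151 TPM. All 3 trametinib libraries were above all untreated ones, and all 3 combination libraries were above all trametinib ones, while untreated and chemotherapy overlapped. The log2 difference from untreated cells was 0.04 ± 0.067 (adjusted p = 0.72) for chemotherapy, 0.69 ± 0.067 (adjusted p = 5.37e-08) for trametinib and 1.06 ± 0.067 (adjusted p = 1.11e-10) for the combination. At 24 h untreated cells held 187, 174 and 176 TPM, and chemotherapy 77.5, 78.4 and 79.3 TPM. Trametinib held 64.5, 53.3 and 57.8 TPM, and the combination 112, 116 and 105 TPM. The 4 groups did not overlap at 24 h, and every treated group was below the untreated one. Nqo1 fell by 1.18 on the log2 scale with chemotherapy (adjusted p = 2.33e-11), by 1.60 with trametinib (adjusted p = 2.24e-13) and by 0.68 with the combination (adjusted p = 3.48e-08). Untreated cells themselves rose by 1.28 ± 0.067 (adjusted p = 1.5e-11) from 6 h to 24 h, and the chemotherapy libraries at 24 h overlapped those at 6 h, with a difference of 0.06 ± 0.067 (adjusted p = 0.451).

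Hmox1 (ENSMUSG00000005413.8, chr8:75093621-75100589, plus strand) encodes heme oxygenase 1, which breaks heme down to biliverdin, iron and carbon monoxide, and is also held down by BACH1. At 6 h its untreated libraries ranged from 38.5 to 44.6 TPM, and no treatment was called different. The differences were 0.25 ± 0.15 (adjusted p = 0.251) for chemotherapy, -0.05 ± 0.15 (adjusted p = 0.819) for trametinib and 0.33 ± 0.15 (adjusted p = 0.0635) for the combination. At 24 h untreated cells held 43.3, 36.04 and 44.9 TPM and chemotherapy 62.1, 50.8 and 56.9 TPM. Trametinib held 13.7, 17.5 and 18.1 TPM, and the combination 36.4, 48.2 and 50.4 TPM. The trametinib libraries at 24 h were the lowest of all 24, the chemotherapy libraries were all above the untreated ones, and the combination overlapped the untreated libraries. Hmox1 rose with chemotherapy by 0.44 ± 0.15 (adjusted p = 0.015), fell by 1.28 with trametinib (adjusted p = 4.18e-07) and differed by 0.11 ± 0.15 (adjusted p = 0.54) with the combination. Leaving out untreated library 2 at 24 h ended the chemotherapy call (0.35, adjusted p = 0.0796), as did leaving out chemotherapy library 1 (0.38, adjusted p = 0.0653). Of the gene's TPM, 84.2% was the coding transcript Hmox1-201 and the rest Hmox1-202, annotated as a retained intron, which spread widely between libraries, at 6.96 ± 4.29 TPM in untreated cells at 6 h and 11.1 ± 8.34 TPM with the combination (SD, n = 3). The 6 h combination was called higher on coding transcripts alone (0.26, adjusted p = 0.00424) and without combination library 1 (0.41, adjusted p = 0.0417).

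Glutathione, the main thiol of the cell, is made by glutamate-cysteine ligase, whose catalytic subunit is Gclc (ENSMUSG00000032350.9, chr9:77754535-77794485, plus strand) and whose modifier subunit is Gclm (ENSMUSG00000028124.15, chr3:122245557-122270732, plus strand). Gsr (ENSMUSG00000031584.16, chr8:33652523-33698163, plus strand) encodes glutathione reductase, which turns oxidised glutathione back with NADPH. Gclc at 24 h was 44.7, 45.9 and 42.6 TPM in untreated cells and 26.3, 28.7 and 27.4 TPM with chemotherapy. It was 24.9, 21.4 and 23.2 TPM with trametinib and 34.1, 32.3 and 34.3 TPM with the combination. The 4 groups did not overlap, with trametinib lowest and untreated cells highest. Gclc fell by 0.67 with chemotherapy (adjusted p = 2.58e-08), by 0.91 with trametinib (adjusted p = 3.08e-10) and by 0.39 with the combination (adjusted p = 2.09e-05). At 6 h it differed by -0.03 ± 0.063 (adjusted p = 0.775) with chemotherapy and -0.13 ± 0.063 (adjusted p = 0.0829) with trametinib. The latter was called lower after rescaling (-0.23, adjusted p = 0.000594) and without trametinib library 2 (-0.18, adjusted p = 0.0399). The combination at 6 h, at 39.5 to 42.4 TPM against 35.8 to 37.1 TPM, was called higher by 0.19 ± 0.063 (adjusted p = 0.0153), and this call was lost when the libraries were rescaled by median ratio (0.058, adjusted p = 0.342) or combination library 1 or 3 was left out (adjusted p = 0.0504 and 0.0525).

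Gclm at 24 h was 91.01, 88.6 and 69.2 TPM in untreated cells and 69.3, 70.8 and 69.5 TPM with chemotherapy. Trametinib gave 51.4, 40.8 and 49.6 TPM and the combination 55.2, 60.96 and 59.6 TPM. Trametinib was lowest and the combination next, neither overlapping another group, while chemotherapy and untreated libraries overlapped. Gclm fell by 0.80 with trametinib (adjusted p = 4.8e-06) and by 0.48 with the combination (adjusted p = 0.000828), and chemotherapy differed by -0.23 ± 0.11 (adjusted p = 0.0788). The chemotherapy difference was called after rescaling (-0.31, adjusted p = 0.0114) and without untreated library 3 (-0.36, adjusted p = 0.0102). The 4 groups at 6 h overlapped, with means from 102 to 111 TPM, and no difference was called. The largest part of the gene's TPM, 39.4%, came from Gclm-205, a transcript of 495 bases annotated as a retained intron, and 38.6% from the coding Gclm-203. The full-length coding transcript Gclm-201, of 5589 bases, made up 12.5%, and at 24 h it was 11.6 ± 0.796 TPM in untreated cells and 6.83 ± 0.66 TPM with trametinib (SD, n = 3). Of the 31-base stretches of Gclm, 5.0% also occur in other genes, most in Ppia.

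Gsr was already called lower at 6 h with trametinib. The 6 h libraries held 68.7, 72.3 and 75.8 TPM untreated and 76.3, 68.4 and 67.3 TPM with chemotherapy. They held 46.2, 50.02 and 48.5 TPM with trametinib and 52.3, 55.9 and 57.2 TPM with the combination. Both groups with trametinib lay below both groups without it. Gsr fell by 0.57 with trametinib (adjusted p = 3.29e-07) and by 0.38 with the combination (adjusted p = 3.46e-05), and chemotherapy differed by -0.03 ± 0.064 (adjusted p = 0.754). At 24 h it was 62.5, 60.2 and 60.7 TPM in untreated cells and 54.03, 55.2 and 51.9 TPM with chemotherapy. It was 30.5, 27.7 and 30.6 TPM with trametinib and 30.8, 34.7 and 37.2 TPM with the combination, and the 4 groups did not overlap. Gsr fell by 1.02 with trametinib (adjusted p = 6.59e-11) and by 0.82 with the combination (adjusted p = 1.21e-09). The chemotherapy difference, -0.18 ± 0.064 (adjusted p = 0.0186), was lost without untreated library 1 (-0.17, adjusted p = 0.0608) or chemotherapy library 3 (-0.16, adjusted p = 0.0709).

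Txnrd1 (ENSMUSG00000020250.10, chr10:82833951-82897712, plus strand) encodes the cytosolic thioredoxin reductase, which passes electrons from NADPH to thioredoxin. It was lower with trametinib and with the combination at both times. At 6 h it was 178, 189 and 189.8 TPM in untreated cells and 193, 166 and 168 TPM with chemotherapy, 2 groups that overlapped. It was 118, 137 and 130.3 TPM with trametinib and 135, 131 and 139 TPM with the combination, also overlapping, and all 6 libraries were below all 6 without trametinib. Txnrd1 fell by 0.53 with trametinib (adjusted p = 6.83e-07) and by 0.46 with the combination (adjusted p = 3.19e-06), and chemotherapy differed by -0.08 ± 0.063 (adjusted p = 0.365). At 24 h untreated cells held 254, 244 and 256 TPM and chemotherapy 131, 130.5 and 128 TPM. Trametinib held 87.8, 76.5 and 82.4 TPM, and the combination 85.4, 91.3 and 95.1 TPM. The last 2 groups overlapped and lay below chemotherapy, which lay below untreated cells. Txnrd1 fell by 0.95 with chemotherapy (adjusted p = 1.95e-10), by 1.60 with trametinib (adjusted p = 7.27e-14) and by 1.46 with the combination (adjusted p = 1.96e-13).

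Srxn1 (ENSMUSG00000032802.8, chr2:152105516-152111376, plus strand) encodes sulfiredoxin, which repairs overoxidised peroxiredoxins. Its levels were the lowest of the 10, and its libraries spread widely. At 24 h it was 1.78, 1.07 and 2.35 TPM in untreated cells and 0.992, 0.329 and 0.359 TPM with chemotherapy. It was 0.441, 0.134 and 0.336 TPM with trametinib and 0.311, 0.213 and 0.132 TPM with the combination. The untreated libraries were all above the treated ones, the combination libraries were all below the chemotherapy ones, and trametinib and the combination overlapped. Srxn1 fell by 0.81 with chemotherapy (adjusted p = 0.00243), by 1.05 with trametinib (adjusted p = 0.000235) and by 1.141 with the combination (adjusted p = 8.11e-05). At 6 h its groups spread from 0.367 to 1.45 TPM in untreated cells to 0.898 to 1.76 TPM with chemotherapy, and no treatment was called. Without untreated library 1 the combination was called higher there (0.53, adjusted p = 0.0363).

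Me1 (ENSMUSG00000032418.15, chr9:86581371-86695953, minus strand) encodes the cytosolic malic enzyme, which makes NADPH from malate. Its largest difference from untreated cells, 0.46 with the combination at 6 h, was smaller than that of the other 9 genes. At 6 h it ranged from 32.7 to 34.95 TPM in untreated cells and 31.7 to 34.4 TPM with chemotherapy to 36.96 to 45.9 TPM with trametinib and 45.3 to 49.8 TPM with the combination. It rose with trametinib by 0.27 ± 0.068 (adjusted p = 0.00269) and with the combination by 0.46 ± 0.068 (adjusted p = 9.7e-06), and the libraries of neither overlapped the untreated ones. At 24 h the untreated libraries held 39.6, 39.5 and 38.2 TPM and the trametinib libraries 40.4, 35.5 and 39.8 TPM, which overlapped. Chemotherapy held 32.2, 36.8 and 32.4 TPM, all below, and the combination 47.5, 48.3 and 47.6 TPM, all above. The 24 h difference was -0.02 ± 0.068 (adjusted p = 0.814) for trametinib and 0.28 ± 0.068 (adjusted p = 0.0012) for the combination. That of chemotherapy, -0.21 ± 0.068 (adjusted p = 0.0135), was lost without chemotherapy library 1 (-0.18, adjusted p = 0.0614) or 3 (-0.18, adjusted p = 0.0583).

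Ugt1a6a (ENSMUSG00000054545.17, chr1:88134809-88218997, plus strand) encodes a UDP-glucuronosyltransferase, which conjugates phenols and drugs for export. It had the largest rise with time of the 10 in untreated cells, and its own highest level was in the combination at 24 h. At 6 h the libraries held 2.59, 1.97 and 2.18 TPM untreated and 1.72, 2.52 and 2.89 TPM with chemotherapy. They held 3.83, 5.02 and 5.23 TPM with trametinib and 5.74, 4.83 and 6.06 TPM with the combination, and all of these were above all libraries without trametinib. Ugt1a6a rose with trametinib by 0.81 ± 0.13 (adjusted p = 2.35e-05) and with the combination by 1.01 ± 0.13 (adjusted p = 1.16e-06). At 24 h untreated cells held 14.9, 16.9 and 14.8 TPM and chemotherapy 9.9, 12.2 and 9.4 TPM. Trametinib held 8.6, 7.93 and 8.14 TPM, and the combination 26.6, 28.1 and 24.1 TPM. No 2 of these 4 groups overlapped, with trametinib lowest and the combination highest. Ugt1a6a fell by 0.53 with chemotherapy (adjusted p = 0.00141) and by 0.84 with trametinib (adjusted p = 1.22e-05), and rose with the combination by 0.72 ± 0.13 (adjusted p = 5.93e-05).

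The Ugt1a genes share their last exons, and 53.0% of the 31-base stretches of Ugt1a6a occur in other genes, most in Ugt1a7c, so how reads were divided among them is uncertain. With all Ugt1a genes of the table summed, every called difference of Ugt1a6a against untreated cells kept its direction and its call. The rise with the combination at 24 h was smaller in the sum, from 28.1 ± 2.05 to 33.8 ± 1.09 TPM (SD, n = 3), a log2 difference of 0.26 (adjusted p = 0.0173). Sums at 6 h differed by 0.40 with trametinib (adjusted p = 0.000853) and 0.56 with the combination (adjusted p = 2.3e-05). Ugt1a6a made up 55.3% of the sum in untreated cells at 24 h and 77.6% with the combination. Ugt1a7c, at the same time, fell by 0.74 with the combination (adjusted p = 0.00362).

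Nfe2l2 (ENSMUSG00000015839.6, chr2:75675513-75704641, minus strand), the gene of NRF2, moved within a narrower range than the targets other than Me1, from 133 to 217 TPM over all libraries. At 24 h it was 203, 201 and 202 TPM in untreated cells and 204, 216 and 207 TPM with chemotherapy. It was 141, 133 and 141 TPM with trametinib and 193, 191 and 193 TPM with the combination. The 4 groups did not overlap, and the trametinib libraries stood well below the others. Nfe2l2 fell by 0.54 with trametinib (adjusted p = 5.43e-10), and differed by 0.05 ± 0.039 (adjusted p = 0.253) with chemotherapy and -0.07 ± 0.039 (adjusted p = 0.14) with the combination. After rescaling, the combination was called lower at 24 h (-0.19, adjusted p = 1.54e-05), and on coding transcripts alone chemotherapy was called higher (0.09, adjusted p = 0.0421). At 6 h the trametinib libraries, 141 to 154 TPM, were below the untreated ones, 157 to 164 TPM, a difference of -0.11 ± 0.039 (adjusted p = 0.0184). That call was lost without trametinib library 1 (-0.08, adjusted p = 0.111) or untreated library 2 or 3 (-0.11 and -0.10, adjusted p = 0.0511 and 0.068).

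**Figure D2:**
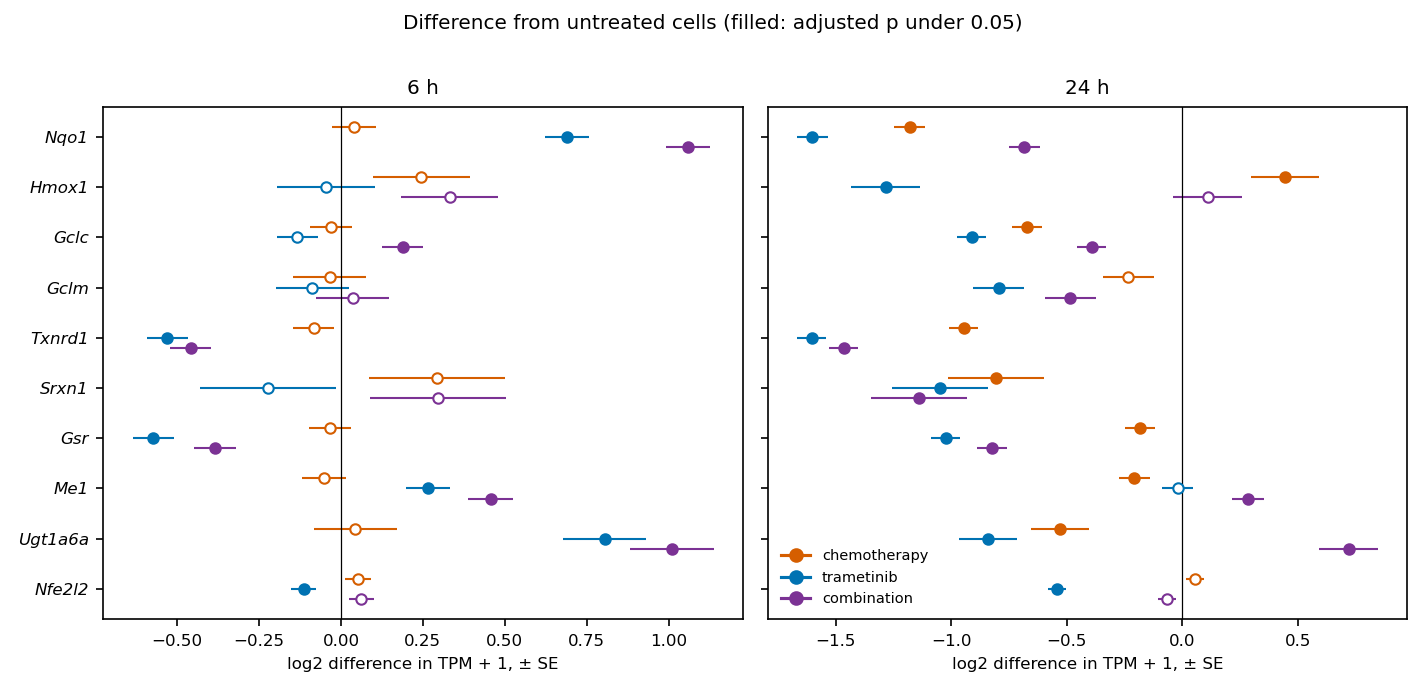
Difference of the 10 genes from untreated cells at 6 h (left) and 24 h (right), on the log2(TPM + 1) scale with standard error, for chemotherapy, trametinib and the combination; filled points have a limma adjusted p under 0.05. The x axes differ between panels; at 6 h Nqo1 reaches 1.06 with the combination, and at 24 h Nqo1 and Txnrd1 both lie at -1.60 with trametinib.

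Counted over the 10 genes, the treatments separated more at 24 h than at 6 h in the plot of differences from untreated cells. Chemotherapy at 6 h gave 0 calls with limma, and 0 of the 10 had an unadjusted p under 0.05, where 36.3% of all genes had one and 24.8% were called. The median log2 difference of the 10 was 0.005, and that of all tested genes 0.01. Trametinib at 6 h gave 3 higher (Nqo1, Me1 and Ugt1a6a, background 35.9%) and 3 lower (Txnrd1, Gsr and Nfe2l2, background 18.9%), a mixed picture with a median of -0.10 against 0.10 for all genes. The combination at 6 h gave 4 higher (Nqo1, Gclc, Me1 and Ugt1a6a, background 38.6%) and 2 lower (Txnrd1 and Gsr, background 19.8%). Its median was 0.24, beside 0.11 for all genes. At 24 h the medians of the 10 were -0.38 for chemotherapy, -0.97 for trametinib and -0.44 for the combination, where all genes had 0.06, 0.04 and 0.10. Libraries of treatment and untreated cells did not overlap for 9 of the 10 genes in each of the 3 comparisons at 24 h, where the same held for 65.3%, 65.1% and 69.5% of all tested genes for chemotherapy, trametinib and the combination, and 59.2%, 58.7% and 63.4% were called in either direction. The 3 comparisons at a time share their untreated libraries and are not independent of each other.

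Markers of epithelium and of other cell types moved in the same 24 h libraries. The 4 epithelial markers summed to 322 to 335 TPM in untreated cells and 448 to 486 TPM with chemotherapy. With trametinib they summed to 218 to 254 TPM and with the combination to 367 to 388 TPM. Of 5 macrophage markers, only Cd68 and Cd14 averaged over 1 TPM, and the 5 summed to 21.5 to 27.4 TPM in untreated cells, 47.6 to 51.8 TPM with chemotherapy, 11.5 to 12.9 TPM with trametinib and 26.5 to 31 TPM with the combination. Cd68 alone had means of 12.7, 37.0, 4.68 and 14.0 TPM in that order, and the defining genes Ptprc and Adgre1 were at most 0.0121 TPM and at 0 in all libraries. Of 3 fibroblast markers, Pdgfra and Dcn averaged over 1 TPM, and the list summed to 5.22 to 6.03 TPM in untreated cells, 7.62 to 8.43 TPM with chemotherapy, 21.3 to 21.5 TPM with trametinib and 35.7 to 38.9 TPM with the combination. All 3 mesenchymal markers were over 1 TPM. Vim held 3300 to 4480 TPM over all libraries, while Fn1 had 24 h means of 312, 258, 659 and 600 TPM and Cdh2 of 6.74, 9.55, 17.9 and 17.4 TPM in untreated cells, chemotherapy, trametinib and the combination. Of 3 endothelial markers only Pecam1 averaged over 1 TPM, and the list summed to 2.61 to 3.61, 7.09 to 12.8, 3.44 to 4.44 and 5.27 to 6.87 TPM in the same order. Their part in the differences of the 10 genes was not tested.

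Rescaling the libraries by median ratio moved the median of all genes by 0.11 for the combination against untreated cells at 6 h and at 24 h and by 0.13 for the combination against chemotherapy at 6 h. It also evened the split of all calls, which largely follows from how this scaling centres the typical gene. The higher share of calls went from 65.5% to 52.3% for trametinib at 6 h, from 66.1% to 51.2% for the combination at 6 h and from 62.4% to 50.5% for the combination at 24 h. None of the called differences of the 10 genes changed direction after rescaling. Of those against untreated cells that were not called, the combination at 6 h turned negative for Gclm (-0.10) and Nfe2l2 (-0.07), and at 24 h chemotherapy did for Nfe2l2 (-0.02) and the combination for Hmox1 (-0.01).

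Set against chemotherapy alone, the combination asks what adding trametinib changed. At 6 h, 4 genes were higher (background 39.7%), led by Nqo1 at 1.02 ± 0.067 (adjusted p = 3.5e-10) and Ugt1a6a at 0.97 ± 0.13 (adjusted p = 2.66e-06), with Me1 at 0.51 and Gclc at 0.22. The Gclc call was lost after rescaling (0.07, adjusted p = 0.23), which took the higher share of all calls from 70.8% to 51.2%. Txnrd1 and Gsr were lower (background 16.4%), at -0.38 and -0.35. At 24 h the same 4 genes were higher (background 30.3%), with Ugt1a6a at 1.248 ± 0.13 (adjusted p = 1.06e-07), Nqo1 at 0.50 ± 0.067 (adjusted p = 4.25e-06), Me1 at 0.49 and Gclc at 0.28. Gsr, Txnrd1 and Nfe2l2 were lower (background 23.2%), at -0.64 ± 0.064 (adjusted p = 8.63e-08), -0.52 ± 0.063 (adjusted p = 9.91e-07) and -0.12 ± 0.039 (adjusted p = 0.0133). Without chemotherapy library 2 the Nfe2l2 call was lost (-0.10, adjusted p = 0.0646). Hmox1 and Gclm were not called, at -0.33 ± 0.15 (adjusted p = 0.0667) and -0.25 ± 0.11 (adjusted p = 0.066), but both were after rescaling (-0.38 and -0.30, adjusted p = 0.0357 and 0.0167), and on coding transcripts alone (-0.40 and -0.26, adjusted p = 9.38e-05 and 0.0455). Hmox1 was also called without chemotherapy library 2 or combination library 3 (adjusted p = 0.0481 and 0.0403). The libraries of the 2 groups did not overlap for any of the 10 genes at 24 h, where that held for 60.6% of all tested genes. By limma 7 of the 10 genes and 53.5% of all genes were called.

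Set against trametinib alone, the combination asks what adding chemotherapy changed, and every called difference was upward. At 6 h, 4 genes were higher and 0 lower (background 12.3% and 6.53%, with 65.4% of all calls higher, 52.7% after rescaling), Nqo1 by 0.37 ± 0.067 (adjusted p = 0.000654), Gclc by 0.32 ± 0.063 (adjusted p = 0.00128), Gsr by 0.19 ± 0.064 (adjusted p = 0.046) and Nfe2l2 by 0.18 ± 0.039 (adjusted p = 0.00329). Hmox1 (0.38, adjusted p = 0.086) was called higher without trametinib library 1 (0.54, adjusted p = 0.0166) and on coding transcripts alone (0.36, adjusted p = 0.00127). Me1 (0.19, adjusted p = 0.0568) was without trametinib library 3 (0.27, adjusted p = 0.011) and on coding transcripts alone (0.19, adjusted p = 0.0498). The Nfe2l2 call was lost with only the 2 groups compared in the model (adjusted p = 0.114). The Gsr call was lost without any 1 of 5 libraries, all 3 of trametinib and combination libraries 2 and 3, with adjusted p from 0.0547 to 0.147. At 24 h, 8 genes were higher and 0 lower (background 31.4% and 18.0%, with 63.6% of all calls higher, 51.0% after rescaling). Ugt1a6a was higher by 1.56 ± 0.13 (adjusted p = 7.49e-09), Hmox1 by 1.39 ± 0.15 (adjusted p = 2.72e-07) and Nqo1 by 0.92 ± 0.067 (adjusted p = 1.79e-09). Gclc followed at 0.52, Nfe2l2 at 0.47 and Me1 at 0.30. Gclm (0.31) and Gsr (0.20) were called in the deposited values and missed the threshold after rescaling, with adjusted p of 0.0636 and 0.0505. Gclm also missed it without trametinib library 2 or combination library 2 or 3 (adjusted p from 0.068 to 0.158), and Gsr without trametinib library 2 or combination library 3 (adjusted p of 0.0773 and 0.0941). Txnrd1 and Srxn1 were not called, at 0.14 ± 0.063 (adjusted p = 0.0744) and -0.09 ± 0.21 (adjusted p = 0.745), and their libraries overlapped. Txnrd1 was called higher without trametinib library 1 or combination library 1 (adjusted p = 0.0303 and 0.0391).

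**Figure D3:**
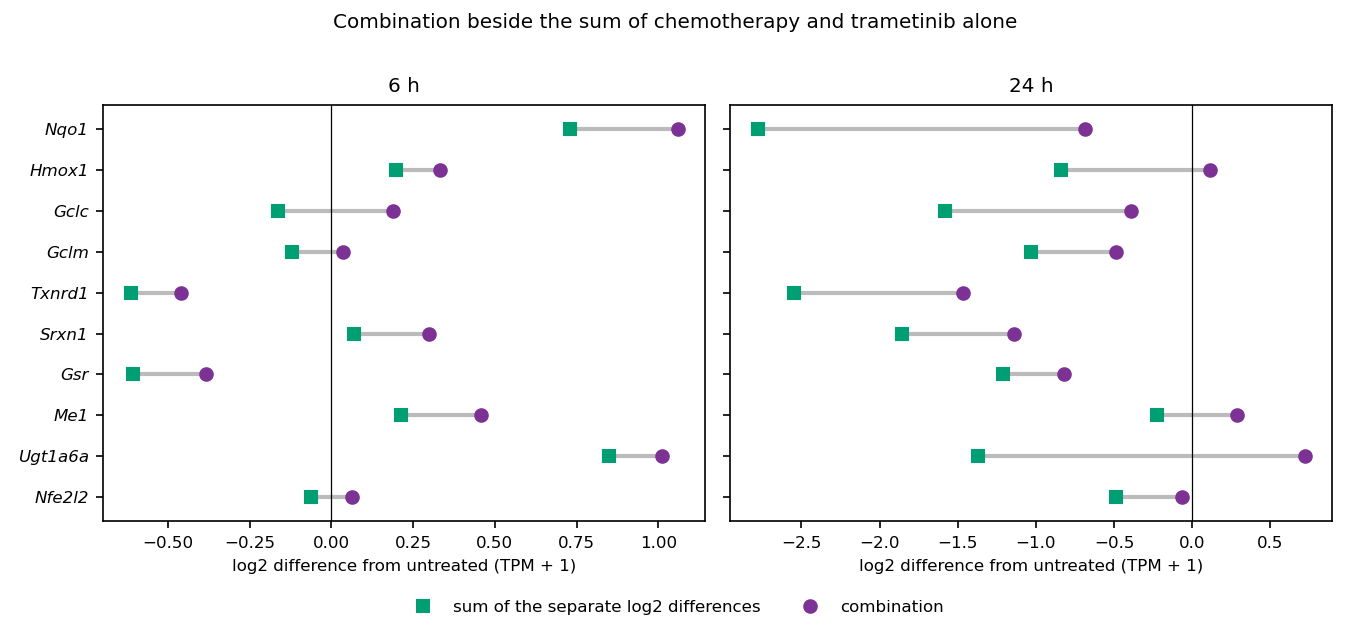
Log2 difference from untreated cells under the combination (circles) and the sum of the log2 differences of chemotherapy alone and trametinib alone (squares) for the 10 genes at 6 h and 24 h; the x axes differ. At 24 h every circle lies to the right of its square, by 0.39 for Gsr to 2.10 for Nqo1. For Srxn1 its low untreated level fixed this in advance.

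The combination was also set against the sum of its parts, the log2 differences of chemotherapy and of trametinib added together, which is what 2 independent effects that multiply would give. At 24 h the observed level was above that sum for all 10 genes and called so for 9, with a median excess of 0.83 on the log2 scale, against 0.00 for all tested genes, as the plot of the combination beside the sum shows. For Srxn1, which was not called, an excess was fixed in advance, as given below, and Srxn1 still counts among the 10 and in their median. For Nqo1 the sum was -2.78 and the observed difference -0.68, an excess of 2.10 ± 0.095 (adjusted p = 7.03e-11). For Ugt1a6a the sum was -1.37 and the observed difference 0.72, an excess of 2.09 ± 0.18 (adjusted p = 7.36e-08). Gclc exceeded the sum by 1.19 ± 0.089 (adjusted p = 1.41e-08) and Txnrd1 by 1.08 ± 0.089 (adjusted p = 4.05e-08), both still below untreated cells. For Hmox1 the sum was -0.84 and the observed difference 0.11, an excess of 0.95 ± 0.21 (adjusted p = 0.00182). Smaller excesses were called for Gclm (0.54, adjusted p = 0.0124), Me1 (0.51, adjusted p = 0.000456), Nfe2l2 (0.42, adjusted p = 1.14e-05) and Gsr (0.39, adjusted p = 0.00287). Srxn1 differed by 0.71 ± 0.29 (adjusted p = 0.0707) and was not called, but was on coding transcripts alone (adjusted p = 0.00773) and without untreated library 2 (0.0268) or chemotherapy library 1 (0.0264). Its sum, -1.86, is a larger fall than the log2(TPM + 1) scale allows from its low untreated level. An excess for Srxn1 was therefore fixed in advance, and its calls under these alternatives carry the same limit. At 6 h 0 of the 10 genes were called with limma, where 12 of all tested genes were (0.0954%), while 5 of the 10 had an unadjusted p under 0.05, as did 12.3% of all genes. The largest 6 h differences from the sum were 0.35 ± 0.089 (adjusted p = 0.145) for Gclc and 0.33 ± 0.095 (adjusted p = 0.213) for Nqo1.

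**Figure D4:**
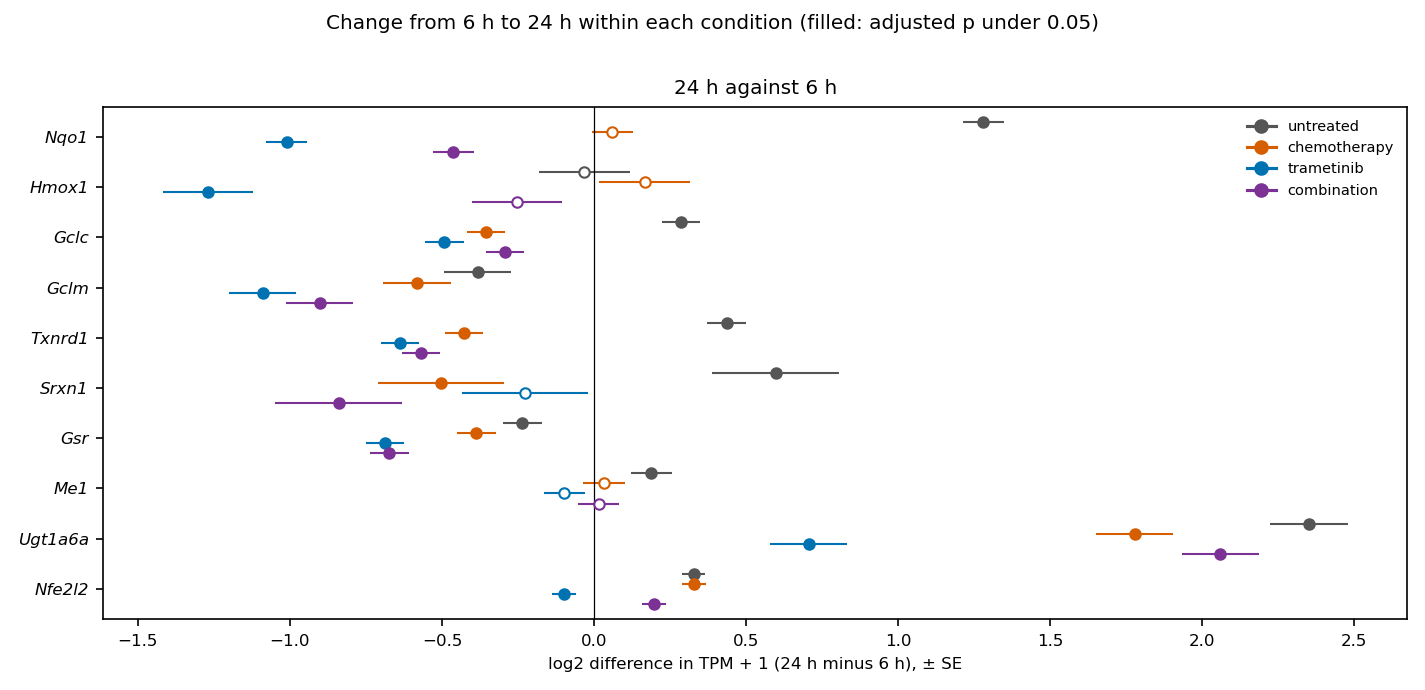
Change from 6 h to 24 h within untreated cells and within each treatment, on the log2(TPM + 1) scale with standard error; filled points have a limma adjusted p under 0.05. Nqo1 goes from 1.28 in untreated cells to -1.01 with trametinib, and Ugt1a6a rises in all 4 conditions.

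The untreated cells were not constant. From 6 h to 24 h, 7 of the 10 genes rose in them (background 29.4%) and 2 fell (background 31.4%). Ugt1a6a rose by 2.35 ± 0.13 (adjusted p = 1.99e-11) and Nqo1 by 1.28 ± 0.067 (adjusted p = 1.5e-11), followed by Txnrd1 (0.44, adjusted p = 6.51e-06), Nfe2l2 (0.33, adjusted p = 6.34e-07) and Gclc (0.29, adjusted p = 0.000634). Srxn1 (0.60, adjusted p = 0.0181) and Me1 (0.19, adjusted p = 0.0228) were called, and each lost its call on leaving out any 1 of 3 libraries. For Srxn1 these were untreated libraries 2 and 3 at 6 h and 3 at 24 h (adjusted p from 0.0563 to 0.118), and for Me1 library 1 at 6 h and 1 and 2 at 24 h (adjusted p from 0.0589 to 0.0895). Gsr fell by 0.24 (adjusted p = 0.00348) and Gclm by 0.38 (adjusted p = 0.00587), the latter not called without untreated library 3 at 24 h (-0.26, adjusted p = 0.0518). Hmox1 differed by -0.03 ± 0.15 (adjusted p = 0.867). For Nqo1, Txnrd1, Gclc, Ugt1a6a and Nfe2l2 the treatments at 24 h were therefore read against an untreated level that had risen. The same holds, less firmly, for Srxn1 and Me1.

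To separate the time course from the contrast with untreated cells, each treatment was also compared with itself, 24 h against 6 h, a comparison added after the data were seen. Gclc, Gclm, Txnrd1 and Gsr fell within all 3 treatments. With chemotherapy 5 genes fell (background 27.3%) and 2 rose (background 36.1%), with Txnrd1 at -0.43, Gclm at -0.58, Gsr at -0.39, Gclc at -0.36 and Srxn1 at -0.50. The Srxn1 call was lost without chemotherapy library 1 at 6 h or 2 or 3 at 24 h (adjusted p from 0.135 to 0.206). Within chemotherapy Hmox1 (0.17, adjusted p = 0.34) was called higher on coding transcripts alone (0.37, adjusted p = 0.000183). Nqo1 was not called within chemotherapy, and Me1 (-0.10, adjusted p = 0.232) was within trametinib only when library 1 at 6 h was left out (-0.18, adjusted p = 0.0322). With trametinib 7 genes fell (background 34.3%), with Hmox1 at -1.27 ± 0.15 (adjusted p = 7.56e-07), Gclm at -1.09 ± 0.11 (adjusted p = 1.31e-07) and Nqo1 at -1.01 ± 0.067 (adjusted p = 4.43e-10), and Gsr, Txnrd1, Gclc and Nfe2l2 at -0.69, -0.64, -0.49 and -0.10. The Nfe2l2 difference was -0.01 after rescaling (adjusted p = 0.716) and was not called without trametinib library 2 or 3 at 6 h or 2 at 24 h (adjusted p from 0.0878 to 0.173). For trametinib over time, 38.9% of all calls were higher, and 50.4% after rescaling. With the combination 6 genes fell (background 30.9%) and 2 rose (background 27.4%), with Gclm at -0.90 ± 0.11 (adjusted p = 1.18e-06), Srxn1 at -0.84 ± 0.21 (adjusted p = 0.00182) and Nqo1 at -0.46 ± 0.067 (adjusted p = 8.6e-06) among the former. Ugt1a6a rose within every treatment, by 1.78 with chemotherapy, 0.70 with trametinib (background 21.9%) and 2.06 with the combination, as the plot of change over time shows.

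Whether a treatment's difference from untreated cells itself changed between 6 h and 24 h was tested as an interaction. For trametinib all 10 genes had a lower difference at 24 h than at 6 h (background 22.3%), with a median change of -0.80 against -0.06 for all genes. The change was -2.29 ± 0.095 (adjusted p = 8.93e-12) for Nqo1, -1.65 ± 0.18 (adjusted p = 9.21e-07) for Ugt1a6a, -1.24 ± 0.21 (adjusted p = 0.000122) for Hmox1 and -1.07 ± 0.089 (adjusted p = 3.08e-08) for Txnrd1. For Srxn1 (-0.82, adjusted p = 0.0324) the call was lost without any 1 of 7 libraries (untreated 2 and 3 and trametinib 1 and 2 at 6 h, untreated 1 and 3 and trametinib 2 at 24 h), with adjusted p from 0.0527 to 0.101. For Me1 (-0.29, adjusted p = 0.0243) it was lost without untreated library 1 or trametinib library 3 at 6 h or trametinib library 2 at 24 h (adjusted p from 0.062 to 0.0773). For chemotherapy the difference was lower at 24 h for 5 genes (background 16.7%, and 62.9% of all calls higher, 51.3% after rescaling), Nqo1, Gclc, Txnrd1, Srxn1 and Ugt1a6a. After rescaling Gsr (-0.24, adjusted p = 0.00896) and Me1 (-0.25, adjusted p = 0.0205) were called lower too, and on coding transcripts alone Hmox1 was called higher (0.35, adjusted p = 0.00852). For the combination it was lower for 6 genes (background 24.3%), Nqo1, Gclc, Gclm, Txnrd1, Srxn1 and Gsr. Nfe2l2 joined them without combination library 2 at 6 h (-0.15, adjusted p = 0.0378) and after rescaling (-0.12, adjusted p = 0.0216).

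**Figure D5:**
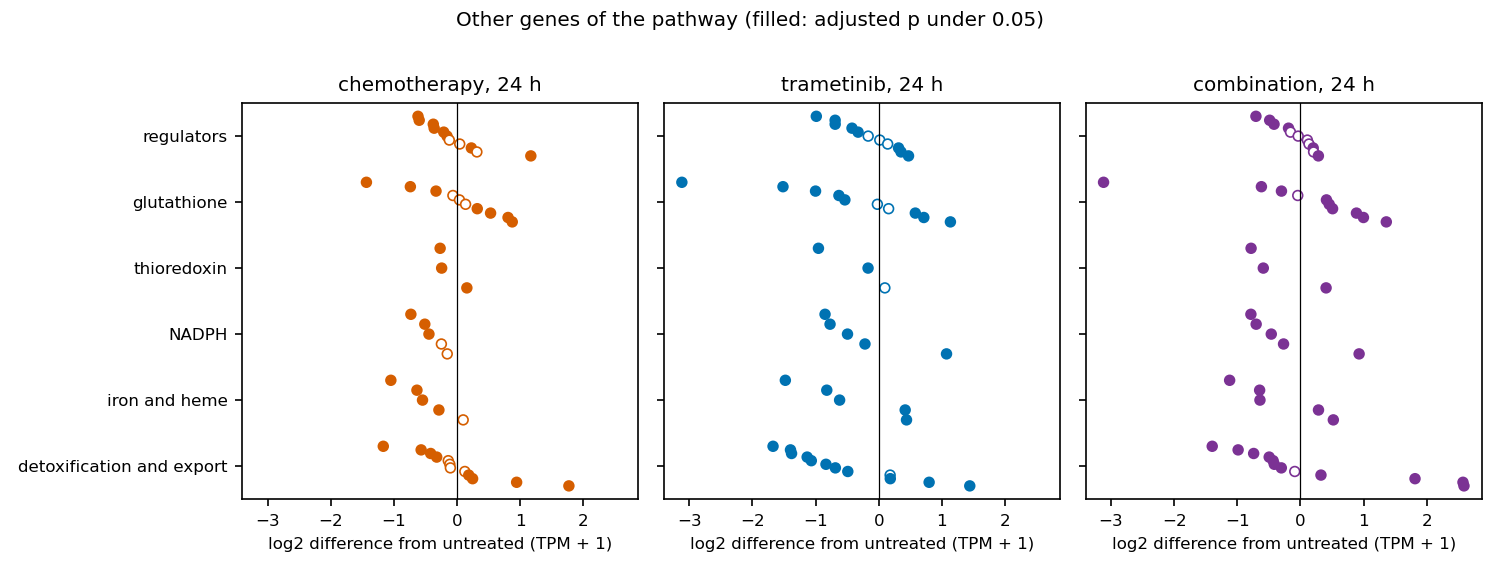
Log2 difference from untreated cells at 24 h of 46 other tested genes of the pathway, by role, for each treatment; 1 point is 1 gene and filled points have a limma adjusted p under 0.05. The point near -3.1 with trametinib and with the combination is Slc7a11, and the points near 2.6 with the combination are Ephx1 and Abcc3.

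A wider list of 59 regulators, enzymes and transporters of the pathway, of which 46 passed the filter, was read beside the 10 genes. Among its regulators are genes whose products act on the NRF2 protein, bind together with it or compete for its elements. Keap1, the adaptor that sends NRF2 for degradation, went from 17.2 to 19.4 TPM in untreated cells to 26.4 to 30.99 TPM with trametinib and 25.2 to 29.5 TPM with the combination at 6 h. It rose by 0.59 ± 0.095 (adjusted p = 3.37e-05) and 0.55 ± 0.095 (adjusted p = 5.27e-05) there. At 24 h Keap1 fell by 0.36 with chemotherapy (adjusted p = 0.00302), rose with trametinib by 0.35 ± 0.095 (adjusted p = 0.00356) and differed by 0.11 ± 0.095 (adjusted p = 0.335) with the combination. Sqstm1, the autophagy receptor that binds KEAP1 and is itself a target of NRF2, rose with trametinib and the combination at 6 h by 0.26 ± 0.051 (adjusted p = 0.000243) and 0.41 ± 0.051 (adjusted p = 8.67e-07). At 24 h it fell by 0.21 with chemotherapy (adjusted p = 0.0015) and by 0.33 with trametinib (adjusted p = 1.66e-05), with -0.04 ± 0.051 (adjusted p = 0.558) for the combination (-0.16 after rescaling, adjusted p = 0.0236). Bach1, the repressor that competes at the same elements, rose with trametinib and the combination at 6 h by 0.34 ± 0.073 (adjusted p = 0.000637) and 0.40 ± 0.073 (adjusted p = 8.99e-05). Its 24 h difference was -0.12 ± 0.073 (adjusted p = 0.165) with chemotherapy and -0.17 ± 0.073 (adjusted p = 0.0568) with trametinib, both called lower after rescaling (-0.20 and -0.21, adjusted p = 0.00519 and 0.00308). With the combination it was -0.19 ± 0.073 (adjusted p = 0.0298), a call lost without any 1 of 4 libraries, untreated 1 and 3 and combination 1 and 3 (adjusted p from 0.0645 to 0.0998). The differences of Keap1, Sqstm1 and Bach1 at 6 h with chemotherapy were 0.22 (adjusted p = 0.108), -0.07 (adjusted p = 0.384) and 0.09 (adjusted p = 0.396).

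Slc7a11, the cystine importer that supplies cysteine for glutathione, fell furthest of the wider list with trametinib. Its untreated libraries ranged from 8.54 to 8.67 TPM at 6 h and 24 to 26.2 TPM at 24 h. With trametinib it was 1.27 to 1.9 TPM at 6 h and 1.78 to 2.14 TPM at 24 h, and with the combination 1.34 to 2.06 and 1.75 to 2.25 TPM. Slc7a11 fell by 1.90 and 1.85 at 6 h (adjusted p = 4.28e-11 and 3.83e-11) and by 3.12 with each at 24 h (adjusted p = 1.21e-14 and 1.22e-14). With chemotherapy it differed by -0.26 ± 0.11 (adjusted p = 0.0918) at 6 h and fell by 1.43 at 24 h (adjusted p = 1.23e-09), to 8.47 to 8.74 TPM. The combination differed from trametinib alone at 24 h by -0.001 (adjusted p = 0.995), and their libraries overlapped.

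The remaining named genes of the wider list, picked as those with the smallest p against untreated cells, moved in both directions. Ephx1, the microsomal epoxide hydrolase, rose in all 6 comparisons, from 25.4 to 29.7 TPM in untreated cells at 24 h to 92.1 to 102 TPM with chemotherapy, 45.2 to 50.9 TPM with trametinib and 161 to 188 TPM with the combination. Its 24 h differences were 1.77 ± 0.07 (adjusted p = 1.19e-13), 0.80 ± 0.07 (adjusted p = 8.56e-09) and 2.59 ± 0.07 (adjusted p = 3.55e-16), and those at 6 h 0.70, 1.62 and 2.56. Abcc1, a pump for glutathione conjugates, fell in all 6, at 24 h from 113 to 124 TPM to 49.9 to 54.8 TPM with chemotherapy, 42.5 to 47.2 TPM with trametinib and 43.5 to 44.9 TPM with the combination. Abcc4, another export pump, fell by 0.47 with chemotherapy at 6 h (adjusted p = 8.86e-05), and Cbr3, a carbonyl reductase, rose there by 0.62 ± 0.1 (adjusted p = 0.000233). Idh1, which makes cytosolic NADPH from isocitrate, rose with trametinib and the combination at 6 h by 2.04 ± 0.085 (adjusted p = 8.52e-13) and 2.08 ± 0.085 (adjusted p = 3.48e-13). Gstm1, a glutathione transferase, rose with the same 2 treatments at 6 h by 0.84 ± 0.062 (adjusted p = 1.29e-09) and 1.01 ± 0.062 (adjusted p = 6.9e-11), with the limit that 16.9% of its 31-base stretches occur in other genes. At 24 h Gss, the glutathione synthetase, rose with chemotherapy by 0.81 ± 0.059 (adjusted p = 7e-10), while Gsta4 and Prdx6, a glutathione transferase and a peroxiredoxin, fell by 1.52 and 0.95 with trametinib (adjusted p = 3.27e-12 and 1.58e-11). Aldh3a1, an aldehyde dehydrogenase, was higher with the combination at 24 h by 1.81 ± 0.08, from 0.0179 to 0.0382 TPM to 2.4 to 2.76 TPM. Those 3 combination libraries alone meet the filter of 1 TPM in 3 libraries. Being high in that group was thus enough for Aldh3a1 to be tested, and no p-value is printed for it.

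Counted over the 46 tested genes of the wider list, chemotherapy at 6 h gave 8 higher and 5 lower, beside a background of 11.3% and 13.5%. Trametinib at 6 h gave 17 higher and 10 lower (background 35.9% and 18.9%), and the combination 19 and 8 (background 38.6% and 19.8%). At 24 h the counts were 11 higher and 22 lower with chemotherapy (background 34.9% and 24.3%), 12 and 27 with trametinib (background 32.4% and 26.3%) and 16 and 23 with the combination (background 39.6% and 23.8%). Aldh3a1 is among the 16, with the limit given for it above. The median log2 difference of the 46 at 24 h was -0.16, -0.46 and -0.17, against 0.06, 0.04 and 0.10 for all tested genes. The counts by role that follow rest on few genes and are to be read against these same shares. Of 10 other tested genes of glutathione synthesis and use, 4 were higher and 3 lower with chemotherapy at 24 h, 3 and 5 with trametinib and 6 and 3 with the combination. Of 12 detoxification and export genes, 4 were higher and 4 lower with chemotherapy, 3 and 8 with trametinib and 4 and 7 with the combination. Of 11 regulators, 2 were higher and 6 lower with chemotherapy, 3 and 5 with trametinib and 2 and 4 with the combination. Of 5 genes of NADPH supply other than Me1, 0 were higher and 3 lower with chemotherapy, and 1 higher and 4 lower with trametinib and with the combination. Above the sum of the parts at 24 h stood 25 of the 46 (background 16.2%), with 1, Gss, below it (background 15.6%).

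Other genes whose levels followed each of the 10 most closely over the 24 libraries were named as a description, by Pearson's r of log2(TPM + 1) among 8993 genes, with no test, since the libraries fall into 8 groups. Left out of the search were the 10 themselves, pseudogenes, predicted or clone-named genes and genes with a low mean level. How closely the 10 followed each other was therefore not ranked. Txnrd1 was closest to Esd (r = 0.984) and Gsr to Lap3 (r = 0.975). Ugt1a6a was closest to Scpep1 (r = 0.973), and Sqstm1 came next (r = 0.960). Nqo1 and Gclm were closest to Olfm1 and Rpp30 (r = 0.956 for both), Nfe2l2 to Rgs17 (r = 0.944) and Hmox1 to Dusp14 (r = 0.918). Me1 was closest to Rcbtb2 (r = 0.891), Gclc to Nfil3 (r = 0.859) and Srxn1 to Slc9a5 (r = 0.849). Apart from Sqstm1, none of the 20 genes named by this rule, 2 for each of the 10, is in the wider list.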

How the data were processed

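Values were deposited as TPM per transcript, in 1 table with 24 library columns, which the authors made with kallisto 0.45 after demultiplexing with bcl2fastq 2.17.1.14, on GRCm38, per the submitters' processing notes. Libraries were stranded poly(A) preparations from 600 ng of total RNA, per the labels' protocols. Transcripts were summed per gene with GENCODE M21 (79662 of 82934 matched, and 4.45% to 5.98% of a library's TPM was left out). No 2 libraries held identical values. Genes reaching 1 TPM in 3 or more libraries were tested with limma 3.58.1 (R 4.3.3) on log2(TPM + 1), with 1 mean per group, 16 residual degrees of freedom, a variance trend and adjusted p under 0.05. The authors tested with DESeq2 at a Bonferroni threshold of 0.10, per the series' design text, and only that threshold was tried, as an alternative, since DESeq2 needs counts. Data were simulated for chemotherapy at 6 h over 12581 genes, with noise drawn independently for each gene and 50 genes changed at each size. Of these, 20, 33, 43 and 47 were recovered at 1.25, 1.5, 2 and 4-fold, with 5 unchanged genes called beside them. With none changed, 0 were called. No other genes were changed, while 24.8% of genes were called in the data, so recovery and false calls there may differ. The 10 genes, the wider list, the markers and the tests were chosen with earlier results of these data known. Named from the wider list were Keap1, Bach1, Sqstm1 and Slc7a11 throughout and, per comparison with untreated cells, the 4 called genes with the smallest p. Abcc3 and Ugt1a7c were named after their values were seen. Replicate numbers were not treated as pairs. Promoter windows were not used for Gclc, Hmox1 and Gsr.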

Additional observations from a re-analysis of the deposited data

Results flagged for a closer look

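The differences from untreated cells that changed between 6 h and 24 h, by the interaction test of limma with adjusted p over all genes, are collected here. For trametinib this held for each of the 10 genes, with Nqo1 at -2.29 (adjusted p = 8.93e-12), Ugt1a6a at -1.65 (adjusted p = 9.21e-07), Hmox1 at -1.24 (adjusted p = 0.000122), Txnrd1 at -1.07 (adjusted p = 3.08e-08) and Srxn1 at -0.82 (adjusted p = 0.0324). Gclc had -0.78 (adjusted p = 1.65e-06), Gclm -0.71 (adjusted p = 0.00147), Gsr -0.45 (adjusted p = 0.000582), Nfe2l2 -0.43 (adjusted p = 6.75e-06) and Me1 -0.29 (adjusted p = 0.0243). The trametinib calls of Srxn1 and Me1 were lost without some single libraries, as given above. Both were also lost with only the groups compared in the model (adjusted p = 0.0562 and 0.0534), and that of Srxn1 with no filter on low values (adjusted p = 0.0575). For the combination, Nqo1 had -1.74 (adjusted p = 1.07e-10), Srxn1 -1.44 (adjusted p = 0.000456), Txnrd1 -1.005 (adjusted p = 3.83e-08), Gclc -0.58 (adjusted p = 2.7e-05), Gclm -0.52 (adjusted p = 0.01) and Gsr -0.44 (adjusted p = 0.000508). For chemotherapy, Nqo1 had -1.22 (adjusted p = 1.11e-08), Srxn1 -1.10 (adjusted p = 0.00495), Txnrd1 -0.86 (adjusted p = 3.28e-07), Gclc -0.64 (adjusted p = 1.2e-05) and Ugt1a6a -0.57 (adjusted p = 0.0141). All of these are lower at 24 h than at 6 h. Of all tested genes, 22.3% were called lower in this way for trametinib, 24.3% for the combination and 16.7% for chemotherapy. All 3 treatments were set against the same untreated libraries, in which 7 of the 10 genes rose between the times and 2, Gsr and Gclm, fell. The part of these untreated shifts in the flagged changes was not tested beyond the comparison of each treatment with itself.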

How the results depend on the processing

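Of 3150 values of the 10 genes under an alternative, 2949 kept their direction and side of the threshold, 43 changed sign without being called under either setting (10 of them after rescaling, 30 with 1 library left out), 119 kept their direction and missed the threshold, 38 newly passed it and 1 reversed. The reversal with a call was Nfe2l2 in the combination against chemotherapy at 6 h, 0.01 and not called as deposited, -0.14 after rescaling by median ratio (adjusted p = 0.000787). Under the study's own threshold, Bonferroni 0.10, the number of the 10 genes called fell from 6 to 3 (combination against chemotherapy, 6 h), 4 to 0 (combination against trametinib, 6 h), 8 to 3 (chemotherapy, 24 h), 8 to 4 (combination, 24 h), 8 to 5 (combination against trametinib, 24 h), 9 to 5 (sum of parts, 24 h) and 9 to 4 (untreated over time). It fell from 5 to 3, 10 to 5 and 6 to 3 for the change of the chemotherapy, trametinib and combination differences, and from 7 to 3 and 8 to 5 within chemotherapy and the combination over time. The same threshold called 566 of all genes for chemotherapy at 6 h (3116 at the main threshold), 2696 for trametinib (6892) and 3297 for the combination (7347), and 3057 (7447), 3122 (7383) and 3783 (7972) at 24 h. Against chemotherapy and trametinib the combination had 2711 (7046) and 435 (2373) at 6 h and 2526 (6731) and 2004 (6208) at 24 h, and against the sum 821 (3997) at 24 h. Over time it called 3202 (7649) in untreated cells, 3394 (7980), 2367 (7066) and 2782 (7344) within chemotherapy, trametinib and the combination, and 1409 (5668), 1157 (4810) and 1868 (6249) for the changes of their differences. With only the groups compared in the model, chemotherapy at 6 h had 2002 calls and the combination against trametinib 828, and 9 values of the 10 genes missed the threshold while 5 newly passed it. Among the 9 were Gsr in the combination against trametinib at 24 h (adjusted p = 0.0818), Srxn1 in untreated cells over time (0.0842) and Nfe2l2 with trametinib at 6 h (0.0884). The 12 genes called against the sum at 6 h became 0 to 41 under the alternatives.

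Leaving out 1 library at a time gave 0 to 0 of the 10 genes for chemotherapy and for the sum at 6 h, 5 to 7 for trametinib and for the combination at 6 h, 6 to 6 against chemotherapy and 3 to 4 against trametinib. At 24 h it gave 6 to 9, 9 to 9 and 8 to 8 for chemotherapy, trametinib and the combination, 7 to 8 and 6 to 9 against chemotherapy and trametinib, and 9 to 10 against the sum. Over time it gave 7 to 8 in untreated cells, 6 to 7, 7 to 9 and 8 to 8 within the treatments, and 5 to 5, 8 to 10 and 6 to 7 for the changes. A replicate block kept 187 of 190 values on their side, Gsr in the combination against trametinib at 6 h missed the threshold (adjusted p = 0.0589), and Srxn1 passed it in that comparison (0.0497) and against the sum at 24 h (0.0376). Libraries with the same number deviated from their group means with correlations of -0.358 to 0.437, 23 of 84 pairs were over 0.1, and 6 of 24 libraries were closest to their own number, so the numbers were not read as pairs. A pseudocount of 0.1 changed no call of the 10 genes. Depth is unknown in TPM.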
